A study of Mus musculus with 4 samples.

Results

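The genes described here are the Wnt ligands, their receptors and co-receptors, the secreted inhibitors and the core proteins that pass the signal on. They were taken by gene symbol from the names on the array: the Wnt, Fzd, Sfrp, Dkk and Axin families, Lrp5, Lrp6, Wif1, Frzb, β-catenin (Ctnnb1), Lef1, Tcf7, Tcf7l2 and the Wnt-inducible signaling proteins Wisp1 and Wisp2. This gave 49 of the 21512 named genes, measured by 69 of the 41174 probes, and the genes rather than the probes are the units counted. The rule reads symbols only.

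3T3-L1 is a line of mouse preadipocytes that turn into adipocytes after hormonal induction. All cells had been in initiation medium with insulin, dexamethasone and IBMX since day 0 and were harvested on day 2, with 0.1% DMSO in every dish. The 4 groups were DMSO alone, bilberry extracts at 100 μg/mL, delphinidin at 100 nM and cyanidin at 100 nM. Each group was measured on 1 array, so there is no replicate check, no p-value and no spread between cultures for any difference, and precision is limited by this number of arrays.

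Wnt proteins are secreted ligands that bind Frizzled receptors together with the co-receptors Lrp5 and Lrp6. Binding stops a complex built on Axin from marking β-catenin for breakdown, and β-catenin then activates transcription with TCF/LEF factors. In preadipocytes this branch of Wnt signaling is known to hold back adipocyte differentiation, with Wnt10b as its best studied ligand.

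A level is a probe's processed signal over the 75th percentile of the same array, so levels compare arrays for the same probe and not genes with each other. This percentile was an intensity of 861, 576, 1009 and 1016 for DMSO, bilberry, delphinidin and cyanidin, the order in which 4 levels are given throughout. "Well above background" is the call of the scanner software, "detected" means with that call and "at background" means without it. The lowest level with that call was 0.0151, 0.0225, 0.0108 and 0.0107. Where only 1 of the 2 arrays compared had the call, the dimmer side was set to its own level or that lowest level, whichever was higher, and the ratio is given as "at least". The error given with a log2 ratio is that of the scanner software for the spots compared, 0.20 for bright spots, and it does not cover differences between cultures. The spike-in control RNAs had a median log2 signal that was higher with bilberry than with DMSO by 0.96, and within 0.03 of DMSO on the other arrays. Scaling to them would move every bilberry log2 ratio by -1.54, delphinidin by 0.26 and cyanidin by 0.23.

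The label calls these cells adipocytes. Of 12 adipocyte marker genes 11 were detected well above background on each of the 4 arrays, as were 7 of 7 preadipocyte markers. Leptin (Lep) was well above background on no array. The summed level of the adipocyte list was 417, 296, 457 and 501, and 152, 159, 226 and 243 without Fabp4, the brightest of them. Of the latter sums, Lpl alone was 95.6, 96.8, 159 and 164. With bilberry 3 of 11 adipocyte markers were more than 2-fold lower and 0 higher, against 7.24% of all named genes lower. These were Adipoq, Retn and Slc2a4, with log2 ratios of -1.07, -1.08 and -1.54. Fabp4 and Cd36 were below DMSO by less, at -0.95 and -0.36. Cfd, Cebpa, Plin1, Cidec, Pparg and Lpl were above DMSO with bilberry, at 0.80, 0.50, 0.39, 0.17, 0.15 and 0.02, and the list median was 0.02. The spike-in scaling would turn these bilberry ratios below DMSO. With delphinidin and cyanidin 0 markers were more than 2-fold lower and Cfd was more than 2-fold higher, at 1.15 and 1.75. The summed level of the preadipocyte list was 141, 96.9, 94.5 and 93.9, and 59.5, 64.8, 57 and 50.5 without Thy1 and Ly6a. None of 4 endothelial markers was detected, and Ptprc, Emr1 and Itgam, which define blood cells and macrophages, were at background. Cd68, Csf1r and Cd14, the other 3 genes of that list of 6, were detected on all 4 arrays, with summed levels of the list between 0.51 and 0.851. Of 4 epithelial markers only Krt8 was detected, and the summed level of that list was 0.0388, 0.0754, 0.102 and 0.0674. Krt8 was more than 2-fold higher with all 3 treatments, with log2 ratios of 1.17, 1.80 and 1.06. Another Krt8 probe was at 1.26, 1.66 and 1.00. Spike-in scaling turns both bilberry ratios below DMSO. In RNA from whole dishes, fewer cells of a type and less RNA per cell cannot be told apart.

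Of the 49 genes, 21 were well above background on all 4 arrays, 9 on 1 to 3 arrays and 19 on none. Of all named genes, 58.4% were detected on all 4 arrays and 30.8% on none. Of 10 Frizzled genes 6 were detected on all 4 arrays, near the share of all genes, and of the co-receptors Lrp5 was. The secreted inhibitors were mostly not well above background: of 10 genes, only Sfrp2 was detected on all 4 arrays and Sfrp5 on the delphinidin and cyanidin arrays. Of 19 ligand genes, 7 were detected on all 4 arrays and 5 on some. By array, 22, 24, 27 and 27 members were detected, where 63.6%, 61.1%, 65.4% and 65.0% of all named genes were. On the DMSO array the spot of Lrp6 and that of a Fzd3 probe were marked by the software and left out. Neither gene counted as detected there. By the software's less strict call of a positive and significant signal the members numbered 33, 32, 33 and 37.

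The 19 genes not well above background on any array are given no order among the arrays. They were the ligands Wnt2, Wnt2b, Wnt3, Wnt7a, Wnt8a, Wnt8b and Wnt10b, the receptors Fzd6 and Fzd9, the inhibitors Dkk1, Dkk2, Dkk3, Dkk4, Frzb, Sfrp1, Sfrp4 and Wif1, the T cell factor Tcf7, and Axin2, a scaffold that β-catenin itself is known to induce. Wnt10b was thus not well above background on any of the 4 arrays. By the less strict call of a positive and significant signal, all 3 TCF/LEF factors, Tcf7 included, counted on each array. All 10 Frizzled genes counted with bilberry and with cyanidin. The spot of Wif1 on the delphinidin array was marked by the software and left out.

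**Figure D1:**
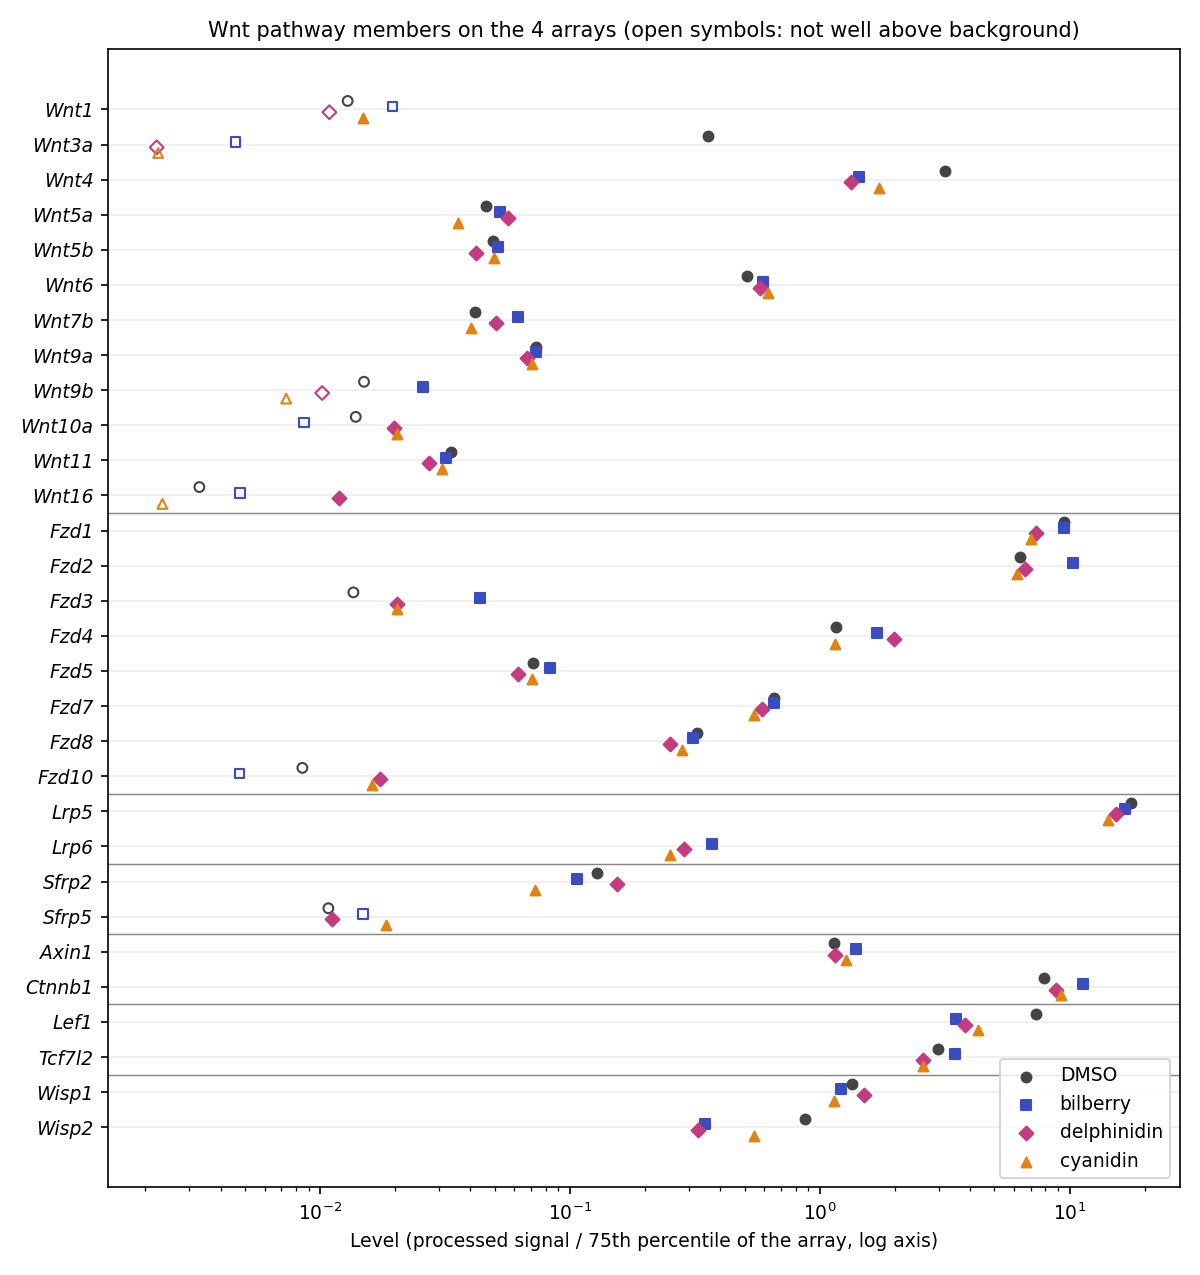
Level of the 30 members detected on at least 1 array (horizontal log axis, processed signal over the 75th percentile of the array), with a circle for DMSO, a square for bilberry, a diamond for delphinidin and a triangle for cyanidin. Open symbols are not well above background. Wnt4, Lef1, Wisp2 and, by less, Lrp5, Fzd8 and Wnt11 have their DMSO circle to the right of all 3 treatments. Of the 21 members detected on all 4 arrays these 6 are 28.6%, against 24% of all named genes. Wnt3a is filled on the DMSO array only.

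With bilberry, 5 of the 24 members that could be compared with DMSO were past 2-fold, which is 20.8%, against 12.1% of 13690 named genes. Wnt3a, Wnt4, Lef1 and Wisp2 were lower, as were 7.24% of all named genes, and Fzd3 was higher, as were 4.81%. With delphinidin, 3 of 27 members were past 2-fold (11.1%), all lower, against 4.67% of all named genes in either direction and 2.94% lower. These were Wnt3a, Wnt4 and Wisp2. With cyanidin, 1 of 27 members was past 2-fold (3.70%), Wnt3a, which was lower, against 3.98% of all named genes in either direction and 2.74% lower. Wnt3a was thus the member more than 2-fold lower with every treatment, which held for 1.07% of 13498 named genes. Wnt3a and Fzd3 could be compared only through the arrays where they were high. Among the 21 members detected on all 4 arrays, 3 were past 2-fold with bilberry and 2 with delphinidin, whereas cyanidin gave 0. Of the 12538 named genes detected on all 4 arrays, 10.6%, 2.71% and 1.95% were past 2-fold. The 3 comparisons share the DMSO array, so a DMSO value that is off by chance enters all of them.

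Most of the detected members lay close to DMSO. The median log2 ratio over the 21 members was 0.00, -0.16 and -0.19 for bilberry, delphinidin and cyanidin, where the median over 12538 named genes was 0.16, -0.01 and 0.01. With cyanidin 17 of the 21 were below DMSO, with delphinidin 12 and with bilberry 8, where 48.2%, 52.3% and 38.3% of those named genes were. With spike-in scaling the member medians were -1.54, 0.10 and 0.05 for bilberry, delphinidin and cyanidin, and those of all named genes -1.38, 0.24 and 0.25. With normexp background correction the member medians were 0.20, -0.16 and -0.21, and those of all named genes 0.20, -0.03 and -0.01. With the mean over the probes of each gene they were 0.00, 0.01 and -0.14 for members, and 0.16, -0.04 and -0.02 for all named genes. Over the 4 arrays the highest and lowest level of a member differed by a median of 0.43 on the log2 scale, and by 0.54 over all named genes. Wisp2, Wnt4, Sfrp2 and Lef1 had the widest ranges. These 4 were past 2-fold, which is 19% of the 21 members, against 15.5% of all named genes.

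**Figure D2:**
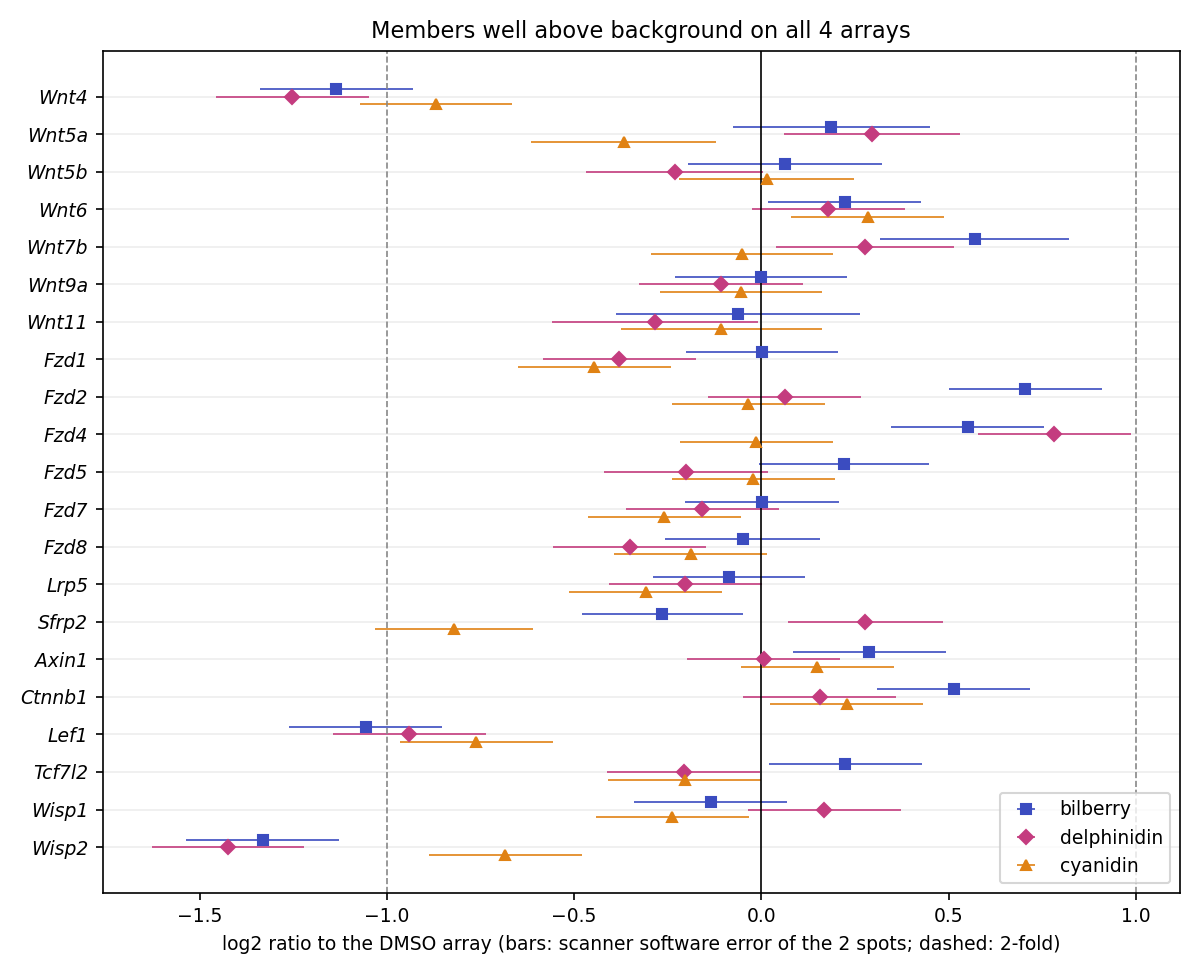
log2 ratio to the DMSO array of the 21 members well above background on all 4 arrays, with a square for bilberry, a diamond for delphinidin and a triangle for cyanidin. Bars are the scanner software's error for the pair of spots and dashed lines mark 2-fold. Wnt4, Lef1 and Wisp2 lie left of the other genes with bilberry and delphinidin, and their cyanidin triangles are closest to 0. With cyanidin Sfrp2, at -0.82, lies among them.

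Wnt4, a ligand best known from kidney and reproductive tract development, was lower with all 3 treatments. Its level was 3.17 in DMSO cells, 1.44 with bilberry, 1.33 with delphinidin and, with cyanidin, 1.73. All 3 treated arrays were below DMSO, and the cyanidin array was the closest to it. The log2 ratios to DMSO were -1.14 ± 0.20, -1.25 ± 0.20 and -0.87 ± 0.20 in this order of treatments, or 2.20-, 2.38- and 1.83-fold lower. Of the genes compared, 789 with bilberry and 258 with delphinidin, Wnt4 included, were at least as far below DMSO. The probe lies at chr4:136567851-136568419 on the plus strand of mm8, the build of the array annotation, for which no exon annotation was used here.

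Lef1 encodes the TCF/LEF factor that carries β-catenin to DNA. DMSO cells had a level of 7.3, bilberry 3.51, delphinidin 3.8 and cyanidin 4.31. As with Wnt4, DMSO was the highest array and cyanidin the next. The log2 ratios were -1.06 ± 0.20, -0.94 ± 0.20 and -0.76 ± 0.20, so that only bilberry was past 2-fold. Another Lef1 probe had levels of 4.53, 2.51, 2.4 and 3.13 and log2 ratios of -0.85, -0.92 and -0.53, below DMSO with each treatment and not past 2-fold. The third Lef1 probe was at background on every array, and averaging it in takes the bilberry log2 ratio to -0.22. The first probe lies at chr3:131213273-131213332 (plus strand, mm8).

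Wisp2, a secreted matrix-associated protein made by adipose precursor cells, had the lowest log2 ratio of the members detected on all 4 arrays with bilberry and with delphinidin, but not with cyanidin. The level lay between 0.326 with delphinidin and 0.875 with DMSO, with bilberry at 0.348 and cyanidin at 0.545. The bilberry and delphinidin arrays were close to each other and cyanidin lay between them and DMSO. The log2 ratios to DMSO were -1.33 ± 0.20, -1.42 ± 0.20 and -0.68 ± 0.20, and thus 2.52-, 2.68- and 1.61-fold lower. The related Wisp1 had levels of 1.34, 1.22, 1.5 and 1.14 and log2 ratios of -0.14, 0.17 and -0.24, with no array standing apart. The Wisp2 probe lies at chr2:163524422-163524481 (plus strand, mm8).

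Together with Wnt3a, the genes Wnt4, Lef1 and Wisp2 were more than 1.5-fold lower with every treatment, which held for 3.10% of 13498 named genes. The direction of these 4 genes was the same under all 7 other scalings and sources of the values, although Wnt4 with delphinidin was at -0.99 and no longer past 2-fold when the arrays were scaled to the spike-in RNAs. That scaling also takes the cyanidin ratios of Lef1 and Wisp2 to -0.53 and -0.45, less than 1.5-fold. Ly6a and Thy1, genes of the preadipocyte marker list, moved with them. Ly6a had levels of 16.3, 3.72, 3.43 and 7.69, with log2 ratios of -2.13, -2.25 and -1.08. Thy1 was at 65.2, 28.4, 34.1 and 35.7, with log2 ratios of -1.20, -0.94 and -0.87. The other 5 genes of that list, Dlk1, Pdgfra, Pdgfrb, Cd34 and Zfp423, were within 2-fold of DMSO on every array. The part of a change in the preadipocyte genes in the lower Wnt4, Lef1 and Wisp2 values was not tested. The probes of Wnt3a, Wnt4, Lef1 and Wisp2 all lie in array rows above 266 of 532, at rows 350, 310, 359 and 513. Of all named genes in those rows 7.75% were more than 2-fold lower with bilberry and 3.31% with delphinidin, against 6.73% and 2.56% in the other rows.

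The 250 bases before the start of Wnt4 and Lef1, which had their highest level with DMSO, and of Sfrp2, which did not, are shown for the letters a TCF/LEF factor and the factor Sp1 bind. The sequences are RefSeq's for GRCm38.p6, on the plus strand: Wnt4 at chr4:137277385-137277634, Lef1 at chr3:131110047-131110296, the first of its 4 starts, and Sfrp2 at chr3:83766071-83766320. Capitals mark GC boxes, GGGCGG or its reverse complement CCGCCC, some of which overlap.
Wnt4: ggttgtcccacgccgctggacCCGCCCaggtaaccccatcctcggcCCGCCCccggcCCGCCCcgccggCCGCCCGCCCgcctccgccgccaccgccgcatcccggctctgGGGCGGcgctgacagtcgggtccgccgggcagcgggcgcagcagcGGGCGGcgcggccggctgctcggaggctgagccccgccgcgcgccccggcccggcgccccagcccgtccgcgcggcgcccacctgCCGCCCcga
Lef1: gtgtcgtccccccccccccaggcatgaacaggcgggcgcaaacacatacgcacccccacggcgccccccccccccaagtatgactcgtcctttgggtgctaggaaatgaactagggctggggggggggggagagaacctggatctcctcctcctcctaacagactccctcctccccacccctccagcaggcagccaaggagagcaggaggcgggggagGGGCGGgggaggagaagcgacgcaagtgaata
Sfrp2: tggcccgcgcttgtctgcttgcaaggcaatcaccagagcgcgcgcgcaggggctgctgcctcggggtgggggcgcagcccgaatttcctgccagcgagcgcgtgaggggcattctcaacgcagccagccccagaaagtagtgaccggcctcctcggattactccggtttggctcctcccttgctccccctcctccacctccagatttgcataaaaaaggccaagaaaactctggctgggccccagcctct
The Wnt4 window held 8 GC boxes and was 85.2% G and C. The Lef1 window held 1 GC box with 66.4% G and C, and the Sfrp2 window held 0 with 63.6%. A GC box was present in 32.7% of 32851 windows of this length. The TCF/LEF core letters, CTTTGA or CTTTGT on either strand, were not in these 3 windows, but were in 1 of the 4 windows of Lef1. They were in 24.4% of the 41 windows of the 32 members that matched the RefSeq table, and in 27.6% of all windows. The 3 genes shown were chosen with their levels known, and GC boxes were not counted in the windows of the other members. The windows thus do not tell whether GC boxes go with a high DMSO level. A match of letters is a description of the sequence and not of binding.

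Wnt3a, a ligand known to act through β-catenin, was above background with DMSO only. Its level was 0.357 on the DMSO array and at background on the bilberry, delphinidin and cyanidin arrays, with measured levels of 0.00459, 0.00222 and 0.00225. It was at least 15.9-fold lower with bilberry and at least 33.1- and 33.2-fold lower with delphinidin and cyanidin. With normexp background correction the log2 bounds shrink to -1.92, -2.69 and -2.71, still past 2-fold. The single Wnt3a spot on the DMSO array was uneven: the SD over its pixels was 67.6% of its net signal of 319.9. Among 1866 DMSO spots not marked as uneven and with a net signal within 25% of it, the median was 14.3% and the 95th percentile 21.5%, and 8 were at least as uneven, that of Wnt3a included. The software had not marked the spot. Around it, 14 of 24 neighboring spots were detected on all 4 arrays, with median log2 ratios of -0.09, -0.02 and 0.02. The part of the uneven spot in the Wnt3a value was not tested. The DMSO spots of Wnt4, Lef1 and Wisp2 had a pixel SD of 8.66%, 6.24% and 15.9% of their net signal. The Wnt3a probe lies at chr11:59064352-59064411 (minus strand, mm8).

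**Figure D3:**
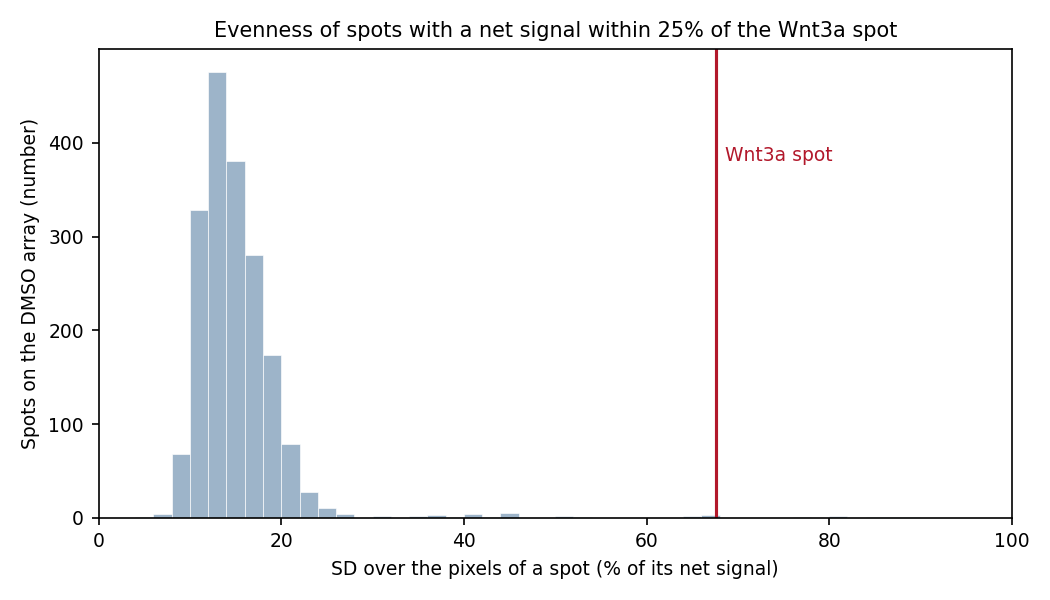
Number of DMSO spots (vertical axis) by the SD over their pixels in percent of net signal (horizontal axis), for the 1866 spots with a net signal within 25% of that of Wnt3a. The line at 67.6% is the Wnt3a spot, while the median spot is at 14.3%.

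The other 6 ligands detected on all 4 arrays were within 2-fold of DMSO with every treatment. Wnt6, named among the ligands that hold back adipocyte formation, had levels of 0.509, 0.594, 0.576 and 0.62 on the DMSO, bilberry, delphinidin and cyanidin arrays, with DMSO the lowest. A different Wnt6 probe had log2 ratios of 0.31, 0.05 and 0.18. Wnt5a, a ligand that mostly acts without β-catenin, was at 0.0461, 0.0525, 0.0566 and 0.0357, and delphinidin was above cyanidin by 0.66 ± 0.23 on the log2 scale. Wnt7b was at 0.0418, 0.062, 0.0506 and 0.0403, highest with bilberry. The bilberry shift of -1.54 by spike-in scaling would turn both Wnt6 and Wnt7b below DMSO on that array. Wnt5b was at 0.0494, 0.0515, 0.0421 and 0.0499. Another probe of Wnt5b and another of Wnt9a were at background on all 4 arrays. Wnt9a and Wnt11 were nearly flat, the former at 0.0729, 0.0729, 0.0676 and 0.0702 and the latter at 0.0333, 0.0319, 0.0273 and 0.0309.

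The remaining ligands were detected on some arrays only, near the detection limit. Wnt9b was detected with bilberry alone, at 0.0258, at least 1.71-fold above DMSO. Wnt10a was detected with delphinidin at 0.0197 and cyanidin at 0.0204, at least 1.30- and 1.35-fold above DMSO. Wnt16 was detected with delphinidin alone, at 0.0119, below the lowest detectable level of the DMSO array. Wnt1, the founding ligand of the family, was printed 10 times on each array. Of its 10 spots, 3, 3, 5 and 10 were detected, and the cyanidin level was 0.0149 with an SD of 0.316 over spots on the log2 scale. The cyanidin level was itself below the lowest detected level of the DMSO array, so no ratio to DMSO is given.

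No Frizzled gene detected on all 4 arrays was past 2-fold with any treatment. Fzd4, a receptor that also binds norrin, had levels of 1.16, 1.7, 1.99 and 1.15. Bilberry and delphinidin were above the other arrays, with log2 ratios to DMSO of 0.55 ± 0.20 and 0.78 ± 0.20, and cyanidin was at -0.01 ± 0.20. Fzd2 was at 6.33, 10.3, 6.61 and 6.18, highest with bilberry. Its log2 ratio with bilberry was 0.70 ± 0.20, and 0.64 at another probe. Both bilberry differences turn below 0, at -0.99 for Fzd4 and -0.84 for Fzd2, with the spike-in scaling. Fzd1 was at 9.5, 9.51, 7.3 and 6.97, Fzd7 at 0.655, 0.656, 0.587 and 0.547, and Fzd8 at 0.322, 0.311, 0.252 and 0.282. In these 3 genes the DMSO and bilberry arrays were above the other arrays, by less than 1.5-fold. Spike-in scaling takes their bilberry log2 ratios to -1.54, -1.54 and -1.59, which makes bilberry the lowest array. A second Fzd7 probe was at 0.128, 0.12, 0.122 and 0.125, with bilberry the lowest array. A second Fzd8 probe had the opposite sign, with log2 ratios of 0.78, 0.26 and 0.32. Fzd5 was at 0.0714, 0.0832, 0.0622 and 0.0703, with log2 ratios of 0.22 with bilberry and -0.20 with delphinidin. Its other probe was at 1.31 with bilberry and 0.69 with delphinidin on that scale, and had no value with cyanidin.

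Fzd3, a receptor known from axon growth, was the member more than 2-fold higher with bilberry. With marked spots kept, Fzd5 was as well, at 1.31 on the log2 scale, through its other probe. The DMSO level of Fzd3 was 0.0136, below the detection call, and Fzd3 was detected at 0.0438, 0.0203 and 0.0204 on the treated arrays, highest with bilberry. The bilberry array was at least 2.90-fold above DMSO, the delphinidin and cyanidin arrays at least 1.34- and 1.35-fold. With normexp background correction the bilberry difference was not past 2-fold, and the delphinidin and cyanidin log2 bounds were -0.07 and -0.05, which no longer places these arrays above DMSO. With spike-in scaling the bilberry log2 bound was 0.14. Another Fzd3 probe was at 0.0854 with bilberry and 0.051 with cyanidin and had no value on the DMSO array. With marked spots kept, that probe stood for Fzd3 and was detected with DMSO. Its log2 ratios were then 1.52, 0.91 and 0.78 with bilberry, delphinidin and cyanidin. The first probe lies on the minus strand at chr14:64166277-64189026 (mm8). Fzd10 was detected with delphinidin at 0.0174 and cyanidin at 0.0161, at least 1.15- and 1.06-fold above DMSO. Its other probe was at background on all 4 arrays.

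Of the co-receptors, Lrp5 had levels of 17.6, 16.6, 15.3 and 14.2. All 3 treatments were below DMSO, by at most 0.31 ± 0.20 on the log2 scale. Lrp6 was at 0.369, 0.286 and 0.252 with bilberry, delphinidin and cyanidin, and its DMSO spot was marked by the software, so it has no ratio to DMSO.

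Among the inhibitors, Sfrp2, a secreted protein with a Frizzled-like domain that binds Wnt ligands, was the one detected throughout. Its levels were 0.128, 0.107, 0.155 and 0.0725. Delphinidin was the highest array and cyanidin the lowest. The log2 ratios to DMSO were -0.26 ± 0.22, 0.28 ± 0.21 and -0.82 ± 0.21, none past 2-fold. The probe lies at chr3:83859869-83859928 (plus strand, mm8). Sfrp5, an inhibitor secreted by fat tissue, was detected at 0.0112 with delphinidin and 0.0183 with cyanidin, the latter at least 1.21-fold above DMSO.

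β-catenin (Ctnnb1) was within 2-fold of DMSO at all 3 of its probes. The probe with the highest signal gave 7.89, 11.3, 8.8 and 9.25. A probe printed 10 times gave 7.91, 9.28, 8.96 and 9.2, with an SD over spots of 0.028, 0.0244, 0.0187 and 0.0199 on the log2 scale. At the latter the 3 treatments were above DMSO by 0.23, 0.18 and 0.22, and the highest of 10 DMSO spots, 8.2, was below the lowest of each treated array, 9.01, 8.84 and 8.98. These spots share an array and an RNA, so their spread covers the printing and scanning only. The last probe was at 1.67, 3.27, 1.42 and 1.31, with log2 ratios of 0.97, -0.23 and -0.35, so that the probes differ in sign for delphinidin and cyanidin. Axin1, a scaffold of the complex that marks β-catenin for breakdown, was at 1.14, 1.4, 1.15 and 1.27. The bilberry values of Ctnnb1 and Axin1 turn below DMSO with spike-in scaling, at -1.03 and -1.25.

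Tcf7l2, the TCF factor tied to diabetes risk in people, was at 2.97, 3.47, 2.58 and 2.58. It was highest with bilberry, with log2 ratios of 0.22, -0.21 and -0.20, and 2 further probes differed from DMSO by at most 0.30. The last Tcf7l2 probe was at 0.0272 with DMSO, 0.0183 with delphinidin and 0.0139 with cyanidin, with log2 ratios of -0.57 with delphinidin and -0.97 with cyanidin. With bilberry this probe was not well above background and at least 1.21-fold below DMSO. Averaging the probes takes the bilberry log2 ratio of Tcf7l2 to -0.32, and spike-in scaling takes it to -1.32. Tcf7l1, listed on the array under the older symbol Tcf3 and so outside the 49 genes, was at 10.5, 16.3, 11.3 and 9.9.

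**Figure D4:**
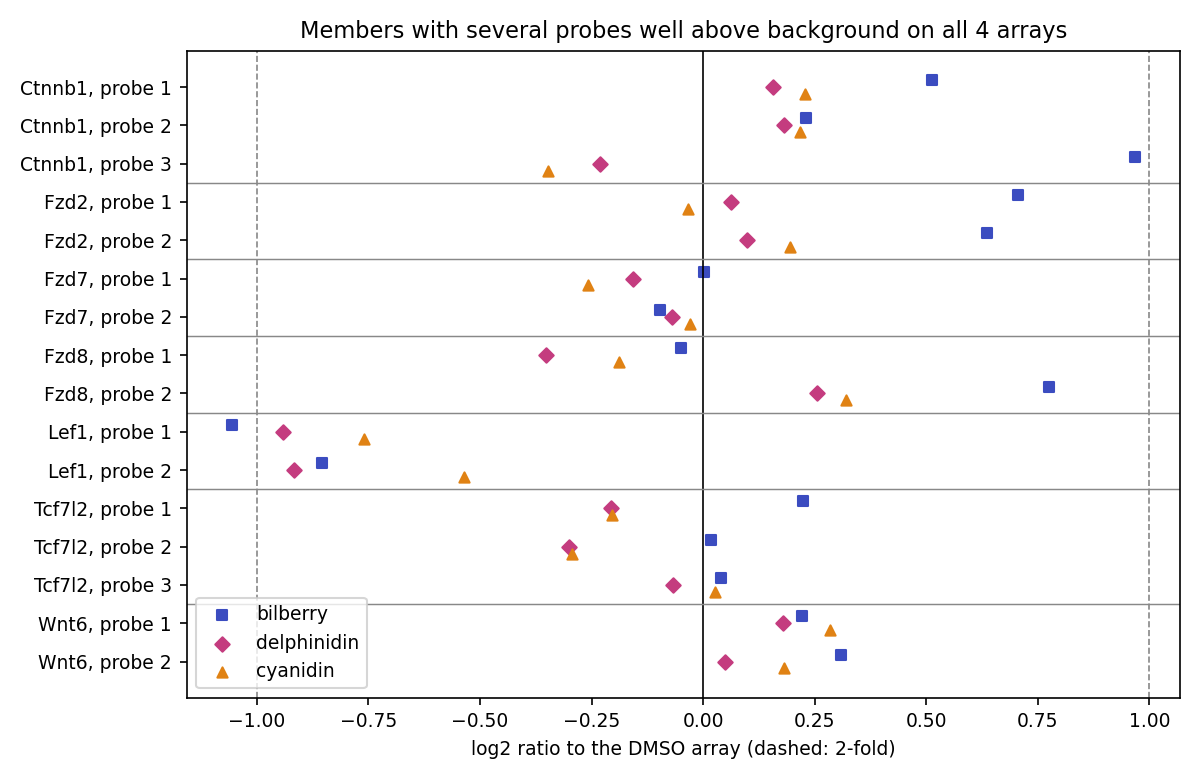
log2 ratio to the DMSO array (horizontal axis) of the probes detected on all 4 arrays, for the 7 members with more than 1 such probe. A square is for bilberry, a diamond for delphinidin and a triangle for cyanidin. Lef1 and Tcf7l2 each have a further probe that was not detected on all 4 arrays and is not shown. Both Lef1 probes shown lie below 0 with all 3 treatments, whereas the Ctnnb1 probes spread from 0.23 to 0.97 with bilberry.

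Delphinidin and cyanidin are anthocyanidins that differ in the B ring, where delphinidin carries an additional hydroxyl group, and they were compared at the same dose and day as the only such pair. Of 27 members 1 was past 2-fold (3.70%), against 2.56% of 14142 named genes. This was Sfrp2, 2.14-fold higher with delphinidin with a software error of 0.21 on the log2 scale, where 1.31% of all named genes were more than 2-fold higher. Of all genes compared, 159, Sfrp2 included, were higher with delphinidin by at least as much. With normexp background correction the log2 difference of Sfrp2 was 0.72 and not past 2-fold. Fzd4 was higher with delphinidin by 0.80 ± 0.20 and Wnt5a by 0.66 ± 0.23, and Wisp2 was lower by 0.74 ± 0.20. Sfrp5, the other inhibitor detected with both compounds, was lower with delphinidin, with a log2 ratio to cyanidin of -0.71 ± 0.39. Wnt4 was lower with delphinidin by 0.38 ± 0.20, and Lef1 by 0.18 ± 0.20, which is within the software's error. The median over the 21 members was -0.05, and with 1 array for each compound neither a difference nor likeness between them could be tested. The bilberry extracts were dosed by weight and their values stand beside the others without a matched dose.

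Around these genes, 92 further genes of the pathway were taken from lists written from general knowledge. With bilberry 4 of 70 were more than 2-fold higher and 5 lower, which is 12.9% and near the 12.1% of all genes. With delphinidin 2 of 70 were higher and 0 lower (2.86%), and with cyanidin 1 of 71 was higher and 0 lower (1.41%), against 4.67% and 3.98% of all genes. Delphinidin and cyanidin differed past 2-fold in 1 of 72 (1.39%), against 2.56% of all genes.

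Of 23 genes for Wnt secretion, agonists and receptor turnover, Rspo2, an R-spondin that strengthens Wnt signaling, was at 0.0537 with DMSO and 0.112, 0.1 and 0.0786 with bilberry, delphinidin and cyanidin. It was past 2-fold with bilberry only, at 1.06 on the log2 scale, and its other probe was at background. Of 25 cytoplasmic genes, Apc, the scaffold of β-catenin breakdown, was at 0.748, 0.351, 0.73 and 0.687, low with bilberry alone. A second Apc probe was also more than 2-fold lower with bilberry, at 0.278 against 0.594 with DMSO, and others had log2 ratios of -0.79 and 0.02. Dact1, which binds Dishevelled, was at 0.119 with DMSO and 0.239 with bilberry, where another probe had a log2 ratio of 0.37. Nkd2, a Wnt antagonist that also binds Dishevelled, was detected with delphinidin alone, at 0.0841, at a log2 bound of 2.48 above DMSO and 2.97 above cyanidin. The SD over the pixels of that spot was 39.3% of its net signal, and the part of this in the value was not tested. The other Nkd2 probe was at background on all 4 arrays.

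Of 18 nuclear partners of β-catenin, Tle2, a corepressor that binds TCF/LEF factors, had levels of 9.14, 4.4, 4.62 and 5.88. DMSO was the highest array, with log2 ratios of -1.06, -0.98 and -0.64. Ep300, an acetyltransferase that assists β-catenin, was at 0.103, 0.0512, 0.0882 and 0.0669, past 2-fold with bilberry. Of its other probes, 2 were at background and 1 had a value with cyanidin only.

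Of 26 commonly cited β-catenin targets, Ccnd1, which encodes cyclin D1, was at 1.31 with DMSO and at 3.7, 3.78 and 3.19 with bilberry, delphinidin and cyanidin. All 3 treatments were more than 2-fold above DMSO, by 1.28 to 1.53 on the log2 scale, but with spike-in scaling the bilberry ratio was -0.04. The HGF receptor Met was at 2.44, 5.21, 4.65 and 4.14, past 2-fold with bilberry. Another Met probe was past 2-fold with all 3 treatments, at 1.04, 1.21 and 1.17 on the log2 scale, and the last was at 0.97, 0.61 and 0.54. The shift of -1.54 by spike-in scaling is larger than the bilberry ratios of Rspo2, Dact1 and Met, which it turns below DMSO. Vegfa, an angiogenic growth factor, was at 13.9, 6.9, 9.94 and 10.2, and Snai2, a repressor of transcription, at 16, 6.97, 11 and 10. Both had their highest level with DMSO and were past 2-fold with bilberry only. Of the other Vegfa probes, 1 was also more than 2-fold lower with bilberry and 1 had a log2 ratio of -0.32. Axin2, a target of β-catenin in many cell types, was at background on all 4 arrays, as given above.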

How the data were processed

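Total RNA of 3T3-L1 cells was measured on 4 Agilent Whole Mouse Genome arrays, 1 per condition. The authors labeled 500 ng RNA with 1 dye and deposited the spot files, which per the file headers were made with Feature Extraction 9.5.1.1. The processed signal is an intensity after the software's background correction, with surrogate values for spots at or below background. Their 75th percentile scaling is not in the deposited intensity values. A deposited table of the series holds the same signals, with a largest relative difference of 0. All arrays carried the same slide and scan entries.

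Here each array was divided by its 75th percentile over non-control spots and converted to log2. Spots that the software marked as uneven or outlying (per array, 701 to 875 of 43379) were not used, and the spots of each probe were averaged. A probe counted as detected when over 50% of its spots were well above background. For each gene, the probe of highest mean signal among those with a value on all 4 arrays was taken. Genes detected on at least 1 of 2 arrays were compared, and called past 2-fold. Levels are given for every member detected on at least 1 array, other probes where their direction was opposite past 1.5-fold or their detection differed, with some further probes beside them, and other pathway genes where past 2-fold. Names came from the files, and those of further pathway genes also from RefSeq accessions (24367 probes). The members and lists were chosen with earlier results of these data known.

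The calculation was tested on simulated arrays of 20908 genes: in each of the 4 comparisons 100% of planted log2 changes of 2 that stayed above the floor were recovered and 0 unchanged genes were called. The simulated noise was far smaller than the planted changes and held no difference between cultures. The simulation thus checks the code only and gives no rate of false calls in these data. The median SD of replicate spots was 0.0531 to 0.0634 on the log2 scale over 245 probes. The alternatives were normexp (offset 50), quantile, median and spike-in scaling, the series table, marked spots kept, probe means, 2 other detection filters, another detection call, a 1.5-fold threshold, array position and, chosen after seeing the data, leaving out Wnt3a. Python 3.11.15, numpy 2.4.6, pandas 2.3.3, matplotlib 3.10.9, R 4.3.3 and limma 3.58.1 were used.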

Additional observations from a re-analysis of the deposited data

How the results depend on the processing

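Of the 49 genes, the number past 2-fold with bilberry (5) became 19, all lower, with spike-in scaling, 3 when detection on all 4 arrays was required, and 1 (Fzd3) in array rows up to 266. With delphinidin (3) it became 7 with no filter on detection, 5 at 1.5-fold, and 0 in array rows up to 266. With cyanidin (1) it became 3 with no filter, 5 at 1.5-fold, and 0 with detection on all 4 arrays, in array rows up to 266, or without Wnt3a. Between delphinidin and cyanidin (1) it became 4 with no filter, 5 at 1.5-fold and 0 with normexp. The filters, the array rows, the threshold and leaving out Wnt3a change which genes are counted, and spike-in scaling shifts all ratios of an array alike. For normexp the cause was not tested. With the spike-in RNAs the count for delphinidin stayed at 3, but held Fzd4, Wisp2 and Wnt3a. No called value of these genes changed sign under any alternative. Of 102 log2 ratios of members, 62 moved by more than the software's error with spike-in scaling, 20 with normexp, 10 with probe means, 5 with marked spots kept, 2 with quantile normalization, and 0 with median scaling or the series table. The median bilberry ratio of all genes was 0.16, and -1.38 with spike-in scaling. No paired analysis was possible because each group holds 1 sample. Genes near the detection limit, such as Wnt1, Wnt9b, Wnt10a, Wnt16, Fzd10 and Sfrp5, have at most bounds against DMSO.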
